A study of Mus musculus with 6 samples.

Results

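The genes described are those of the mitochondrial ribosome, taken by name as every row of the deposited count table that begins with Mrpl or Mrps and a digit and holds at least 10 counts over the 6 libraries. The rule found 77 genes among the 24054 of the table, 48 for the large subunit (Mrpl) and 29 for the small (Mrps). All 77 passed the expression filter and were among the 10975 genes tested, the least abundant with 351 counts in all. The limit on counts left out none of the genes so named, and no difference between groups was used.

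Mitochondria hold their own ribosomes, which translate only the few inner-membrane subunits of the respiratory chain and ATP synthase that mitochondrial DNA encodes. The ribosomal RNAs come from mitochondrial DNA, whereas every protein is encoded in the nucleus, made in the cytosol and imported. Some of these proteins descend from bacterial ribosomal proteins and others have no bacterial relative. The small subunit decodes the messenger RNA, and the large subunit joins the amino acids and sits at the inner membrane, where the new chain is inserted. The mitochondrial ribosomal RNAs were not analysed here, so only the genes of its proteins are described.

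The study compared 2 states of TIBx, a mouse line labelled as liver BNL 1ME A.7R.1: the parental cells, genotype WT (replicates A, B and C), and the line TIBxDNAJ-PKAc, genotype DNAJ-PKAc (replicates A, B and C). DNAJ-PKAc joins the start of DNAJB1, a co-chaperone, to the catalytic subunit of protein kinase A, and it defines fibrolamellar carcinoma. Both groups were grown in the same serum-supplemented medium with added glutamine, and total RNA was sequenced once per replicate. The labels do not say how the fusion was introduced, whether TIBxDNAJ-PKAc is 1 clone, or whether replicates came from separate cultures. A difference between the lines therefore cannot be told apart from an effect of the fusion, and p-values refer only to how much these libraries vary, a variation that may be technical.

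Depth ran from 8095549 to 9969590 expected counts per library, of which the 77 genes took between 0.228% and 0.373%. Prkaca, the kinase part of the fusion, was at 63.6 to 87.6 CPM in WT, against 95.7 to 131 CPM in DNAJ-PKAc (CPM, counts scaled to a common depth, with library factors by TMM, the trimmed mean of M-values). Of 8 hepatocyte markers, 7, among them Alb and Hnf4a, had 0 counts in every library and the other had 1 count in WT A, and of 6 epithelial markers only Krt8 was tested, so the labelled liver origin is not visible in these markers. The mesenchymal gene Vim had 93657 to 129806 counts in each library. The 8 mesenchymal markers summed to 23000 to 28100 CPM in WT, against 15600 to 30700 CPM in DNAJ-PKAc. Thy1 had 0 counts throughout and Lum at most 2. Of the 6 tested, 1 had a fitted log2 difference above 0 (Acta2) and 5 below. Fn1 was at 2480, 7390 and 3480 CPM for WT, against 629, 609 and 6050 CPM for DNAJ-PKAc. The leukocyte markers summed to 39.2 to 103 CPM in WT, against 20.2 to 83.1 CPM in DNAJ-PKAc, nearly all of it Cd14, with Ptprc at 0. The endothelial markers stayed at or below 2.32 CPM. WT B and DNAJ-PKAc C stood apart. WT B held 2.66% of its counts in the ribosomal precursor Rn45s, against 0.912% to 1.05% elsewhere, and 10412 CPM of the nuclear RNA Malat1, against 1065 to 4639. The median of 29 cell cycle genes, as log2 against the average of WT, was 1.86 in DNAJ-PKAc A, 1.92 in B and -1.15 in C. Calls and medians of the gene groups below are therefore also given without one or both of them. Values of single libraries are always in the order A, B and C.

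Both subunits were higher in DNAJ-PKAc A and B than in any WT library, and DNAJ-PKAc C was not. The large-subunit genes summed to 2060, 1543 and 1964 CPM in the WT libraries, against 2394, 2483 and 1895 CPM in the DNAJ-PKAc libraries. The small-subunit genes summed to 1090, 832 and 1033 CPM in WT, against 1235, 1247 and 969 CPM in DNAJ-PKAc. DNAJ-PKAc C thus lay below WT A and C in both sums, and WT B was the lowest library of all 6. The group means were 1856 ± 275 and 2257 ± 317 CPM for the large subunit and 985 ± 136 and 1150 ± 157 CPM for the small (SD, n = 3 each), so the groups overlapped. The sum of the large subunit over that of the small was 1.89, 1.85 and 1.90 in WT and 1.94, 1.99 and 1.96 in DNAJ-PKAc. Here the groups did not overlap, but the gap was narrow, from 1.90 in WT C to 1.94 in DNAJ-PKAc A. Mrpl13 gave 105, 63.7 and 92.4 CPM of the large sums in WT, against 169, 196 and 131 CPM in DNAJ-PKAc. With its CPM taken out, the ratio of DNAJ-PKAc A falls below that of WT C. Mrpl13 has the highest fitted difference of all members, so its removal lowers the DNAJ-PKAc ratios by choice. Whether the gap depends on Mrpl13 more than on other members was not tested. The median log2 differences of the subunits were close, at 0.27 (large) and 0.25 (small). In bulk RNA, more of these transcripts per cell and less of all other RNA cannot be told apart.

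**Figure D1:**
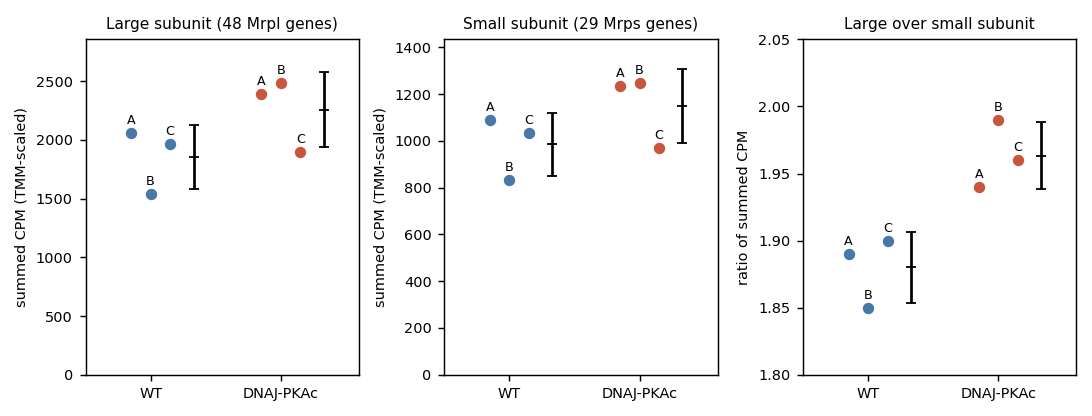
Summed TMM-scaled CPM of the 48 large-subunit genes and of the 29 small-subunit genes, and the ratio of the 2 sums, in each library (points, replicates A to C), with the group mean and SD beside them. DNAJ-PKAc A and B lie above every WT library in both sums and DNAJ-PKAc C does not, whereas all 3 ratios of DNAJ-PKAc (1.94 to 1.99) lie above those of WT (1.85 to 1.90). The ratios overlap between groups if the CPM of Mrpl13, the member with the highest fitted difference, are taken out. The axis of the ratio does not start at 0.

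With all 6 libraries none of the 77 genes passed the test (quasi-likelihood F test of edgeR, p adjusted by Benjamini-Hochberg over all genes tested, threshold 0.05), where 3.51% of all genes did. At an unadjusted p under 0.05 there were 14 of 48 large-subunit genes, 12 higher and 2 lower, and 6 of 29 small-subunit genes, all higher, beside 21.5% of all genes tested. The adjusted test called 0 by limma-voom as well (3.56% of all genes). DESeq2 called 3 as higher, Mrpl13, Mrpl51 and Mrps25, where it called 8.88% of all genes. Of the large-subunit genes 37 lay above 0 and 11 below, with a median log2 difference of 0.27, and of the small-subunit genes 22 lay above and 7 below, with a median of 0.25. The median over all genes tested was 0.05. Groups did not overlap, with DNAJ-PKAc higher, in 22 of the 77 genes, 13 large and 9 small, beside 15.8% of all genes, and with DNAJ-PKAc lower in 5, 4 large and 1 small, beside 13.1%.

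**Figure D2:**
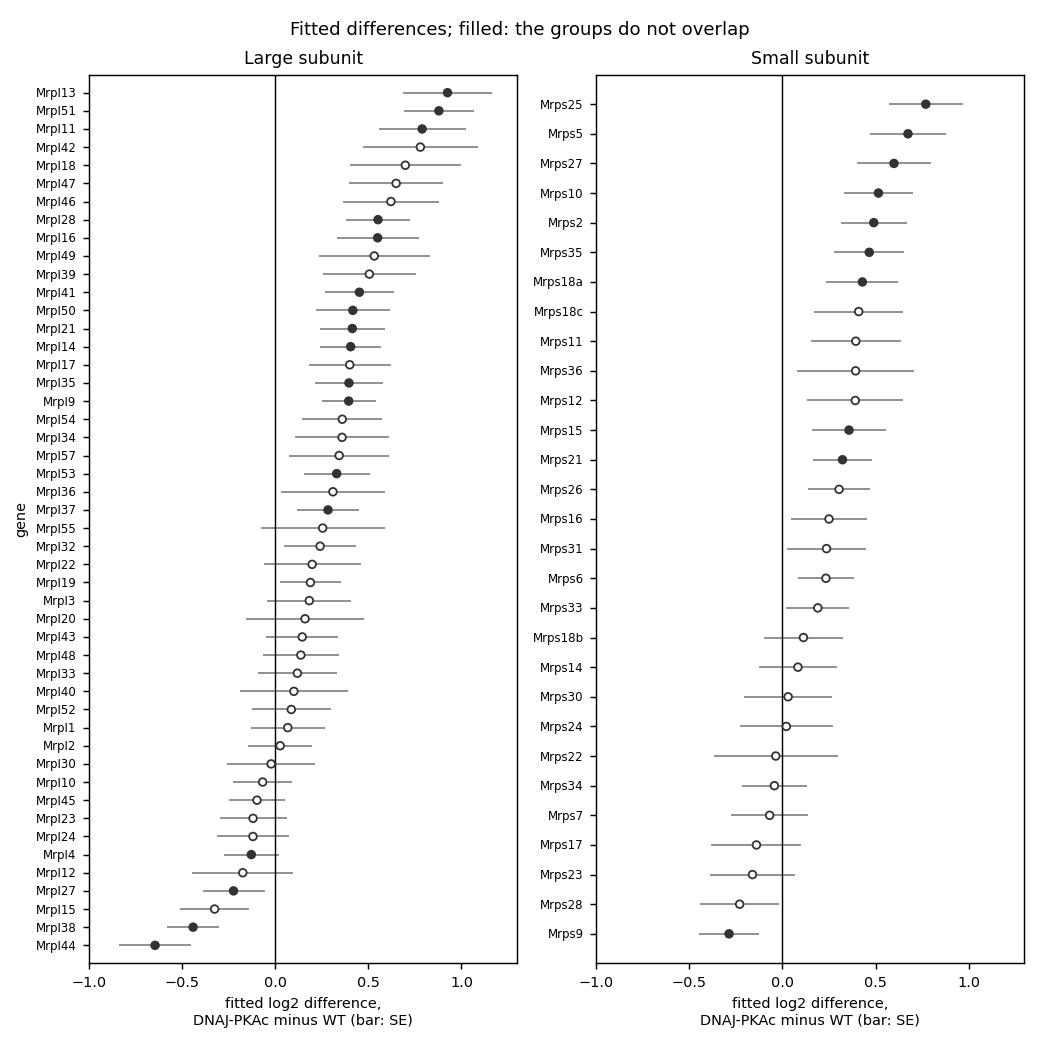
Fitted log2 difference, DNAJ-PKAc minus WT, with its standard error, for each of the 48 large-subunit and 29 small-subunit genes, sorted within the subunit. Filled points mark genes whose 3 DNAJ-PKAc libraries lie all above or all below the 3 WT libraries, 22 above and 5 below, and none of the genes passed the adjusted threshold of 0.05.

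Leaving out DNAJ-PKAc C turned the absence of calls into 17 calls, all of them higher. Without it 11 of 48 large-subunit genes rose (Mrpl11, Mrpl13, Mrpl16, Mrpl17, Mrpl18, Mrpl21, Mrpl28, Mrpl42, Mrpl46, Mrpl47 and Mrpl51) and 6 of 29 small-subunit genes rose (Mrps2, Mrps5, Mrps10, Mrps25, Mrps27 and Mrps35), and 0 fell (edgeR adjusted p under 0.05). Across all genes that fit called 14.3% higher and 11% lower. The medians were then 0.39 and 0.33 for the large and small subunit. Leaving out WT B gave 0 calls among the members and 0.994% of all genes, with medians of 0.09 and 0.08 and 27 of 48 and 19 of 29 genes above 0. With both libraries left out the medians were 0.21 and 0.23, with 33 of 48 and 21 of 29 above 0, and 28 members rose, 18 large and 10 small (23.9% of all genes rose), and 6 fell (24.5% of all genes). The 6 were Mrpl15, Mrpl23, Mrpl38, Mrpl44, Mrps9 and Mrps23. Leaving out any other single library gave 0 calls among the 77.

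**Figure D3:**
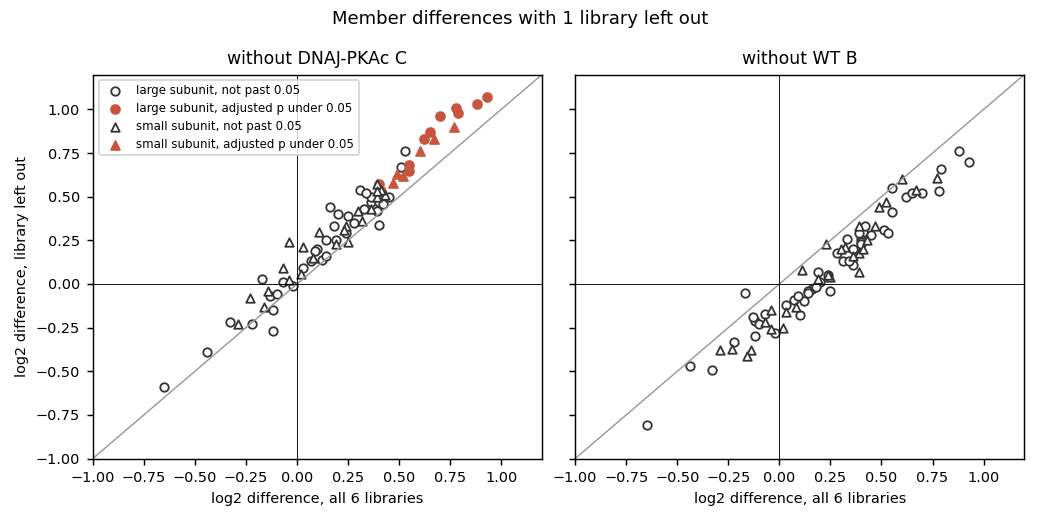
Log2 difference of each member with all 6 libraries (horizontal) against the same without DNAJ-PKAc C (left) or without WT B (right), with circles for the large and triangles for the small subunit. Filled points pass an adjusted p of 0.05 with the library left out, 17 on the left and 0 on the right, and nearly all points of the right panel lie below the line of equality.

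The same 2 libraries show in the single genes. DNAJ-PKAc A and B both lay above all 3 WT libraries for 48 of the 77 genes (62.3%, beside 32.5% of all genes tested). DNAJ-PKAc C joined them for 22 of the 48, a share near that over all genes tested (1736 of 3563). DNAJ-PKAc C lay below both A and B for 67 of 77 (87%, beside 42.7%). It lay within the WT range for 38 genes, above it for 24 (31.2%, beside 34.9% of all genes) and below it for 15 (19.5%, beside 29.5%). WT B was the lowest of the 3 WT libraries for 66 genes (85.7%, beside 42.3% of all genes) and the lowest of all 6 for 54 (70.1%, beside 25.1%). The part in this of the cell cycle genes, which were low in DNAJ-PKAc C, and of Rn45s and Malat1, which were high in WT B, was not tested.

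**Figure D4:**
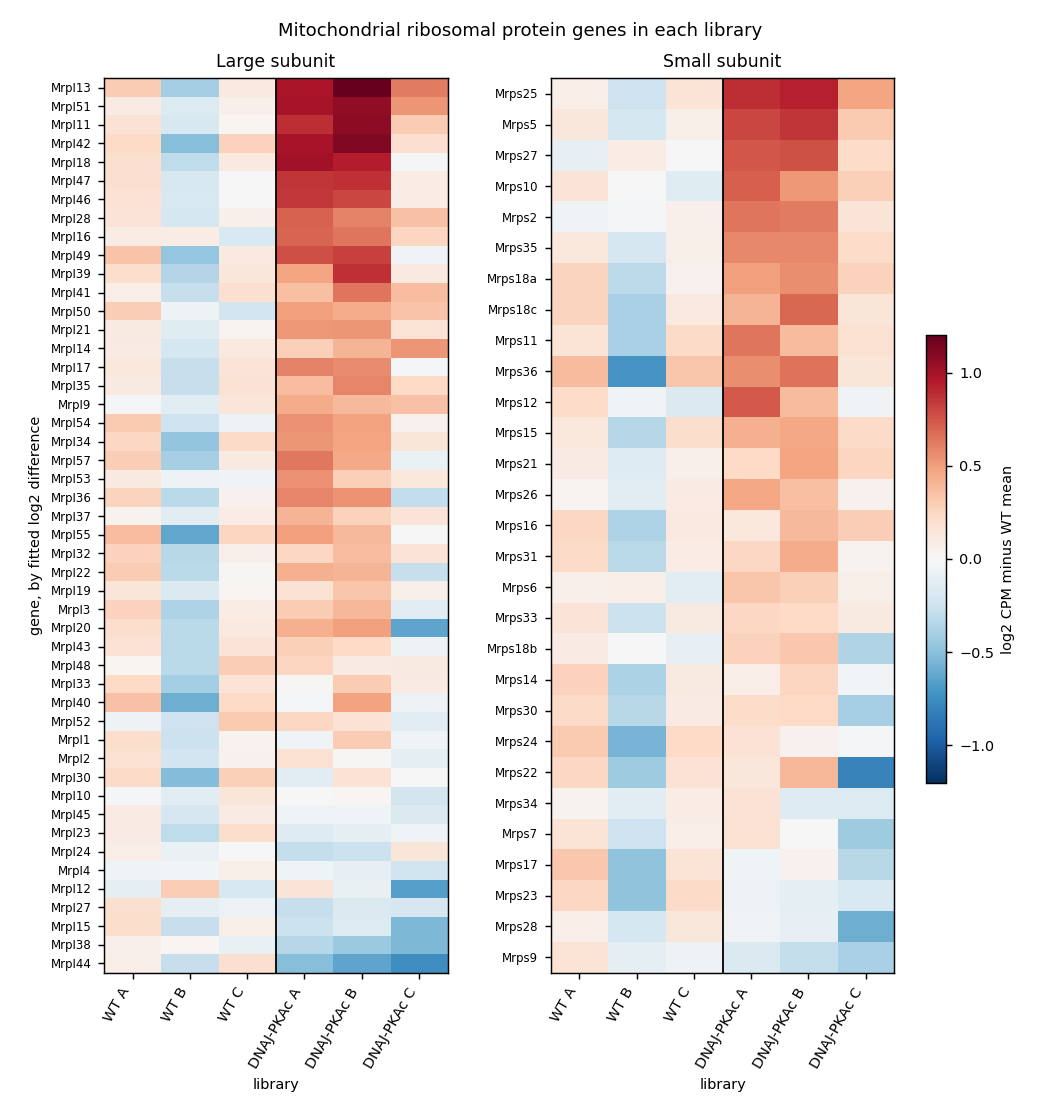
Log2 CPM of each member in each library minus the mean of the WT libraries (colour), with genes sorted by their fitted difference within the large (left) and small (right) subunit. The WT B column is blue for most genes, DNAJ-PKAc A and B are red for the upper genes, and DNAJ-PKAc C is paler there, with the lowest row of the large subunit, Mrpl44, blue in all 3 DNAJ-PKAc libraries.

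In the large subunit the highest differences were those of Mrpl13, Mrpl51, Mrpl11 and Mrpl42. Mrpl13, a relative of a bacterial protein (mm10 chromosome 15, 55534094 to 55557748), was at 105, 63.7 and 92.4 CPM in WT, against 169, 196 and 131 CPM in DNAJ-PKAc. Every DNAJ-PKAc library exceeded every WT library, on average 1.90-fold (log2 0.93, SE 0.24, edgeR adjusted p = 0.0958). Mrpl51, a protein with no bacterial relative (chromosome 6, 125191801 to 125196269), was at 69.0, 57.4 and 67.3 CPM in WT, against 128, 135 and 93.3 CPM in DNAJ-PKAc. The groups did not overlap, and with a fold of 1.84 (log2 0.88, SE 0.19) it came nearest to the threshold of all members (edgeR adjusted p = 0.0563). Over the 17 alternative settings its log2 difference ran from 0.76 to 1.03 and its adjusted p from 2.18e-06 to 0.225, and it passed in 3 of them.

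Mrpl11, at the base of the stalk that recruits translation factors (chromosome 19, 4962147 to 4966999), was at 30.6, 23.7 and 27.7 CPM in WT, against 50.5, 57.6 and 33.6 CPM in DNAJ-PKAc. DNAJ-PKAc C lay just above WT A, so the groups did not overlap (log2 0.79, SE 0.23, edgeR adjusted p = 0.127). Mrpl42, another protein specific to mitochondria (chromosome 10, 95480805 to 95501940), was at 40.8, 24 and 41.6 CPM in WT, against 68.5, 74.5 and 39.7 CPM in DNAJ-PKAc. Here DNAJ-PKAc C lay within the WT range (log2 0.78, SE 0.31, edgeR adjusted p = 0.211). Without DNAJ-PKAc C all 4 genes rose, Mrpl13 by log2 1.07 (adjusted p = 0.0153), Mrpl51 by 1.03 (0.00383), Mrpl11 by 0.98 (0.00725) and Mrpl42 by 1.01 (0.0258).

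The lowest differences of the large subunit were those of Mrpl44, Mrpl38, Mrpl15 and Mrpl27. Mrpl44, whose fold resembles an RNase III enzyme (chromosome 1, 79776018 to 79781445), was at 27.5, 21.5 and 29.7 CPM in WT, against 18.2, 16.7 and 15.4 CPM in DNAJ-PKAc. The groups did not overlap, with a WT level 1.57 times that of DNAJ-PKAc (log2 -0.65, SE 0.19, edgeR adjusted p = 0.128). Its log2 difference was -0.59 without DNAJ-PKAc C (adjusted p = 0.0646) and -0.81 without WT B (0.0919), so it was below 0 with either library left out. Mrpl38, a part of the central protuberance of the large subunit (chromosome 11, 116131817 to 116138868), was at 91.6, 89.2 and 82.4 CPM in WT, against 69.0, 64.5 and 60.2 CPM in DNAJ-PKAc. Again no library of one group reached the other (log2 -0.44, SE 0.14, edgeR adjusted p = 0.146). Mrpl15 overlapped between groups, at 79.1, 56.6 and 71.8 CPM in WT, against 57.3, 61.0 and 47.2 CPM in DNAJ-PKAc (log2 -0.33, SE 0.19, edgeR adjusted p = 0.337). Mrpl27, whose bacterial relative reaches the catalytic centre, was at 29.5, 23.8 and 24.6 CPM in WT, against 21.3, 23.0 and 22.4 CPM in DNAJ-PKAc, lower in every DNAJ-PKAc library, by a log2 difference of -0.22 (SE 0.17, edgeR adjusted p = 0.446).

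By site on the large subunit, the 3 stalk genes had 1 member above 0, Mrpl11, while Mrpl10 was at log2 -0.07 and Mrpl12, which also binds the mitochondrial RNA polymerase, at -0.17. Of the 6 genes around the exit of the peptide tunnel 3 lay above 0, from Mrpl47 at 0.65 to Mrpl24 at -0.12, and Mrpl45, which contacts the inner membrane, was at -0.10. Of 8 genes of the central protuberance 5 lay above 0, from Mrpl18 at 0.70 to Mrpl38. None of these 17 genes, which include Ict1, a ribosomal protein of another name, passed the edgeR test with all 6 libraries, 4 had an unadjusted p under 0.05 (21.5% of all genes did), and DESeq2 and limma-voom called 0. The medians of the stalk, the tunnel exit and the protuberance were -0.07, 0.05 and 0.12. They were -0.05, -0.10 and -0.12 without WT B, 0.03, 0.17 and 0.18 without DNAJ-PKAc C, and 0.15, 0 and -0.06 without both, so the sign of each site's median depended on the libraries used. Without DNAJ-PKAc C, 1, 2 and 2 of their genes rose and 0 fell, where 14.3% of all genes rose and 11% fell. The 30 large-subunit genes with bacterial relatives had a median of 0.22, with 22 above 0, and the 20 listed as specific to mitochondria one of 0.34, with 17 above 0. Without WT B these medians were 0.03 and 0.19, and without DNAJ-PKAc C 0.37 and 0.44. The second class holds Mrps30 and Mrps18a, which the structures place in the large subunit. Mrps18a has a bacterial relative all the same, and with it moved to the first class the medians were 0.24 and 0.33.

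In the small subunit the highest differences were those of Mrps25, Mrps5, Mrps27 and Mrps10. Mrps25, a protein specific to mitochondria (chromosome 6, 92169525 to 92184033), was at 29.8, 23.6 and 31.6 CPM in WT, against 52.1, 53.7 and 39.1 CPM in DNAJ-PKAc. The groups did not overlap (1.71-fold, log2 0.77, SE 0.20, edgeR adjusted p = 0.0933). Mrps5, of the body of the subunit (chromosome 2, 127587222 to 127606829), was at 32.0, 25.2 and 30.7 CPM in WT, against 50.9, 53.1 and 36.3 CPM in DNAJ-PKAc, also without overlap (1.6-fold, log2 0.67, SE 0.20, edgeR adjusted p = 0.131). Both had the same profile over the DNAJ-PKAc libraries, with C between WT and the other two.

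Mrps27, a pentatricopeptide repeat protein of the ribosome (chromosome 13, 99344786 to 99415562), was at 22.8, 25.9 and 24.5 CPM in WT, against 40.9, 41.6 and 28.4 CPM in DNAJ-PKAc (1.51-fold, log2 0.60, SE 0.20, edgeR adjusted p = 0.158). WT B was not low for this gene, and its log2 difference was 0.60 without WT B too (adjusted p = 0.261, with fewer libraries). Mrps10, of the head of the subunit (chromosome 17, 47368887 to 47381417), was at 22.2, 19.8 and 18 CPM in WT, against 32.9, 28.7 and 24.4 CPM in DNAJ-PKAc, without overlap (1.43-fold, log2 0.52, SE 0.19, edgeR adjusted p = 0.184). Without DNAJ-PKAc C, Mrps25 rose by log2 0.90 (edgeR adjusted p = 0.0105), Mrps5 by 0.83 (0.0111), Mrps27 by 0.76 (0.0103) and Mrps10 by 0.62 (0.0344).

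The lowest differences of the small subunit lay nearer to 0 than those of the large. Mrps9, of the head (chromosome 1, 42851233 to 42905683), was at 41.1, 34.0 and 35.0 CPM in WT, against 32.4, 30 and 27.8 CPM in DNAJ-PKAc, the only small-subunit gene with every DNAJ-PKAc library below every WT library (log2 -0.29, SE 0.16, edgeR adjusted p = 0.328). Mrps28 was at 26.3, 21.5 and 27.4 CPM in WT, against 24.3, 23.2 and 16.6 CPM in DNAJ-PKAc (log2 -0.23, SE 0.21). Mrps23 and Mrps17 were at log2 -0.16 (SE 0.23) and -0.14 (SE 0.24), with WT B the lowest library of both, at 22.8 and 24.3 CPM. The adjusted p values of these 3 were 0.542, 0.699 and 0.756 (edgeR), and their groups overlapped. Of 5 genes of the head 3 lay above 0, with a median of 0.02. All 4 of the platform did, with a median of 0.38, and 3 of 4 of the body, with a median of 0.32, among them Mrps12, of the decoding centre, at 0.39. Without WT B the medians of head, platform and body were -0.22, 0.19 and 0.19, and without DNAJ-PKAc C 0.09, 0.46 and 0.40, so that of the head changed sign. None of these 13 passed the edgeR test with all 6 libraries, 2 had an unadjusted p under 0.05 (21.5% of all genes did), and DESeq2 and limma-voom called 0. The 16 small-subunit genes with bacterial relatives had a median of 0.29, with 12 above 0, and the 10 listed as specific to mitochondria one of 0.21, with 7 above 0. Without WT B these were 0.17 and 0.06, and without DNAJ-PKAc C 0.33 and 0.32. With Mrps18b, which also has a bacterial relative, moved to the first class they were 0.25 and 0.24.

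Mrps18a, Mrps18b and Mrps18c are paralogs that descend from 1 bacterial protein and take different places in the mitochondrial ribosome. Mrps18a was at 47.3, 31.6 and 40.7 CPM in WT, against 55.5, 57.9 and 47.8 CPM in DNAJ-PKAc, just without overlap (log2 0.43, SE 0.19, edgeR adjusted p = 0.249). Mrps18c was at 23.2, 14.7 and 21 CPM in WT, against 25.7, 31.2 and 21.3 CPM in DNAJ-PKAc (log2 0.41, SE 0.24, adjusted p = 0.345). Mrps18b was at 47.0, 44.2 and 41.0 CPM in WT, against 53.4, 55.2 and 34.2 CPM in DNAJ-PKAc (log2 0.11, SE 0.21, adjusted p = 0.781). None of the 3 passed the test, and reads of such paralogs could be shared. Mrps30, placed in the large subunit by the structures despite its name, was at log2 0.03 (SE 0.24), and Mrps36, now known as a subunit of the 2-oxoglutarate dehydrogenase complex, at 0.39 (SE 0.32). With Mrps30 and Mrps18a counted with the large subunit and Mrps36 left out, the medians were 0.27 and 0.24.

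Levels were compared between genes as CPM per kb of the principal GENCODE transcript, averaged over the 6 libraries. The large-subunit genes ran from 5.66 to 105 CPM per kb, with a median of 27.3, and the small-subunit genes from 6.28 to 100, with a median of 23.9. The highest of the large subunit were Mrpl54 (105 ± 23 CPM per kb, SD over 6 libraries), Mrpl13 (103 ± 40.4) and Mrpl28 (101 ± 24), which did not differ beyond their spread. Mrpl13 took this place through the DNAJ-PKAc libraries: it was at 135 ± 26.7 CPM per kb there, the highest of its subunit, and at 71.2 ± 17.3 in WT (SD, n = 3 each), below Mrpl54, Mrpl28, Mrpl30 and Mrpl33. The lowest over all libraries were Mrpl48 (5.66 ± 0.814), Mrpl57 (6.45 ± 1.63) and Mrpl55 (6.97 ± 1.75). In the small subunit Mrps21 (100 ± 14.9), Mrps6 (74 ± 8.81) and Mrps18a (52.9 ± 10.9) stood highest and Mrps35 (6.28 ± 1.33), Mrps25 (6.31 ± 2.03) and Mrps17 (6.58 ± 1.34) lowest. Those 3 have principal transcripts of 4162 to 6073 bases, and the length in use in these cells is not known from counts per gene. Of the genes at the ends of this order that were not described above, Mrpl28, Mrps21 and Mrps35 were higher in every DNAJ-PKAc library. Mrpl28 was at 97.0, 75.6 and 90.9 CPM in WT, against 143, 132 and 111 CPM in DNAJ-PKAc (log2 0.55, SE 0.17, edgeR adjusted p = 0.138). Mrps35 was at log2 0.47 (SE 0.19, adjusted p = 0.214) and Mrps21 at 0.32 (SE 0.16, 0.274). Groups overlapped for Mrpl54 (log2 0.36), Mrpl48 (0.14), Mrpl57 (0.34) and Mrpl55 (0.25), and Mrps6, at 0.23, had DNAJ-PKAc C just below WT B (60.3 and 60.6 CPM).

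**Figure D5:**
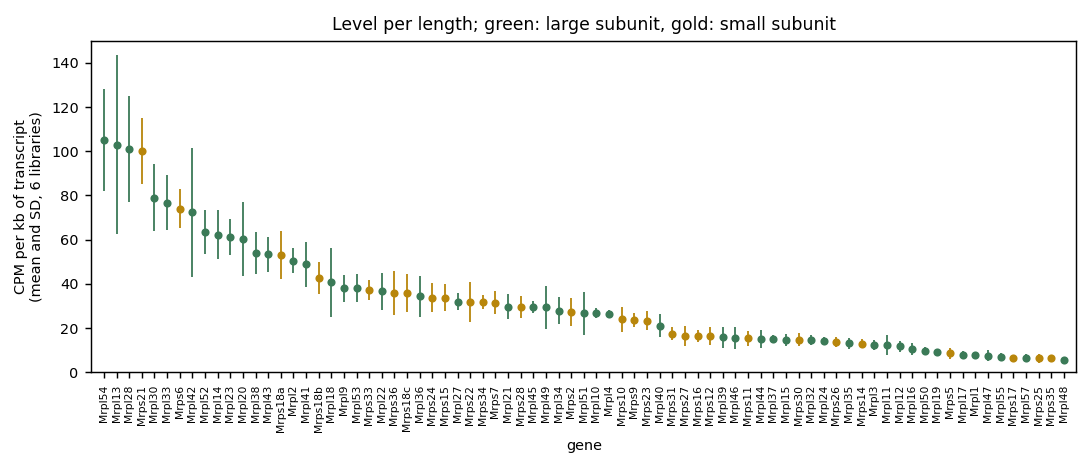
CPM per kb of the principal transcript for each of the 77 genes, as mean and SD over the 6 libraries, ordered from the highest (Mrpl54, 105) to the lowest (Mrpl48, 5.66), with the large subunit in green and the small in gold. Neighbours in the order overlap within their SD.

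The 77 genes lie on 17 chromosomes, with 10 on chromosome 11, so no single region carries them. Their transcripts are short, with a median of 1288 bases against 3065 for all tested protein-coding genes, at a similar GC content (50.7% and 50.2%). Starts were often shared with a neighbour: 20 genes (26%) had a protein-coding gene on the other strand that begins within 500 bases upstream, beside 9.99% of all tested genes. Of the 20 partners 19 were tested and 0 passed the threshold (3.51% of all genes did). In 12 cases gene and partner both lay above 0, with the pair of Mrpl46 and Mrps11 counted from both sides. Of all 77 members 59 lay above 0, and of the 10975 genes tested 5917. Whether partners move together was not tested. Mrpl46 and Mrps11, a large- and a small-subunit gene whose starts lie 30 bases apart on chromosome 7, are each other's partner. Mrpl46 was at 15.5, 12.0 and 13.7 CPM in WT, against 24.8, 24 and 14.5 CPM in DNAJ-PKAc (log2 0.62), and Mrps11 at 15.3, 10.4 and 16.1 CPM in WT, against 21.5, 17.9 and 15.6 CPM in DNAJ-PKAc (log2 0.39). Mrpl18 shares its start region with the cytosolic chaperonin gene Tcp1 (37 bases, log2 0.70 and 0.44), and Mrps12 with Sars2, the mitochondrial seryl-tRNA synthetase (232 bases, log2 0.39 and 0.18). Exons of 17 of the 77 genes overlap those of another gene of the table, Mrpl13 with Mtbp, Mrpl18 with Tcp1, Mrpl51 with Mir3098 and Mrps25 with Nr2c2 among them, and their counts are uncertain, because no source used here gives the strand setting of the counting.

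Promoters were read for the 68 members with a RefSeq entry (GRCm38.p6), as the 250 bases before the start, and compared with 15378 protein-coding genes of the table. That background was not limited to genes that passed the expression filter, as all members did. Its part in the shares below was not tested. The RefSeq start lay over 100 bases from the start of the GENCODE gene for 20 of the 68, so the 2 annotations can place a promoter differently. Printed are the promoters of the genes with the highest and lowest fitted difference of each subunit among the 42 whose starts lay within 30 bases of each other, as examples from both ends. Mrpl13, Mrpl51 and Mrpl11, with higher differences than Mrpl42, are not among the 42. Capitals mark every match, on either strand, to 7 motifs: NRF1 (GCGCA and GCGC with any base between them), ETS factors such as GABPA (CCGGAAG), YY1 (AAGATGGCG), the estrogen-related receptors (TCAAGGTCA), the MYC E-box (CACGTG) and the cyclic AMP response element, in full (TGACGTCA) and as its core (TGACG), which every full match contains.
Mrpl42, chr10:95501950-95502199, minus strand: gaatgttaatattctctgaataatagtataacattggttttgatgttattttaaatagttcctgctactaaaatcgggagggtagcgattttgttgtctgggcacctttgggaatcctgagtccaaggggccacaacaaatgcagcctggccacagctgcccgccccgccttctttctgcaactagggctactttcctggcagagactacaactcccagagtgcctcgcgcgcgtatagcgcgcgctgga
Mrpl44, chr1:79775768-79776017, plus strand: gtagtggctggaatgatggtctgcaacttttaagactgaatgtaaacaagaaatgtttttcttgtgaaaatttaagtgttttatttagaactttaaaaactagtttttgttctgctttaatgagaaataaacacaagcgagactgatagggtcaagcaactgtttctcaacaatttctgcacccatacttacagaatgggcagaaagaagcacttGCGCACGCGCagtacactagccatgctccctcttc
Mrps25, chr6:92184024-92184273, minus strand: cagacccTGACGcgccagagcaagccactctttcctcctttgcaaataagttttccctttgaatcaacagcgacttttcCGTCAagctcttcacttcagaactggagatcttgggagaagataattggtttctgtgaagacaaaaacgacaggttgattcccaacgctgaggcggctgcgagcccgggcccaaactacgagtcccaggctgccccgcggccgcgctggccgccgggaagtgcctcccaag
Mrps9, chr1:42850983-42851232, plus strand: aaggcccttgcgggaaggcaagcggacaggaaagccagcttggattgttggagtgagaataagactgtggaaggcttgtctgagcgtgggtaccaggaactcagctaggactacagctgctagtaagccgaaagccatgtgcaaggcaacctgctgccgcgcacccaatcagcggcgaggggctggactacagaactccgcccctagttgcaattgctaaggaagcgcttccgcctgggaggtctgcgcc

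Mrpl44 held 1 NRF1 match, Mrps25 2 cores of the cyclic AMP response element, and Mrpl42 and Mrps9 no match. NRF1 and GABPA are known regulators of nuclear genes for mitochondrial proteins. Over the 68 promoters, NRF1 matched in 10 (14.7%, beside 5.59% of all promoters of this length), 9 of 42 in the large subunit and 1 of 26 in the small. The ETS motif matched in 16 (23.5%, beside 9.46%), YY1 in 2 (2.94%, beside 0.767%), the E-box in 5 (7.35%, beside 6.93%) and the estrogen-related receptor motif in 0 (beside 0.306%). The core matched in 24 (35.3%, beside 21.1%) and the full element in 2 (2.94%, beside 2.11%). The median log2 difference was 0.28 with an NRF1 match and 0.29 without, 0.32 and 0.27 for ETS, and 0.39 and 0.24 for the core. Without WT B these pairs were 0.09 and 0.12, 0.16 and 0.11, and 0.21 and 0.04. A match is a run of letters, not a measured binding site.

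Genes that work with the mitochondrial ribosome were read from 6 lists, none of whose members passed the edgeR test with all 6 libraries. The lists held 0, 2, 2, 1, 2 and 3 genes with an unadjusted p under 0.05, in the order below, where 21.5% of all genes had one, and limma-voom called 0 and DESeq2 2, 1 translation factor and 1 tRNA synthetase. Of 6 ribosomal proteins with other names 4 lay above 0, with a median of 0.26. Among them Chchd1 was at log2 0.56 (SE 0.27, edgeR adjusted p = 0.278) and Gadd45gip1 at 0.44 (SE 0.19, 0.235). Of 21 translation and RNA factors 14 lay above 0 (median 0.19), led by Hsd17b10, a subunit of mitochondrial RNase P, at 112, 95.5 and 115 CPM in WT, against 176, 178 and 145 CPM in DNAJ-PKAc (log2 0.63, SE 0.16, adjusted p = 0.0919). Gfm2, a ribosome recycling factor, was at log2 0.53 (SE 0.18, adjusted p = 0.160).

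Of 27 assembly factors 13 lay above 0 and 14 below, with a median of -0.02 beside 0.05 over all genes. In 6 of the 27 every DNAJ-PKAc library lay above every WT library (beside 15.8% of all genes) and in 3 below (beside 13.1%). Trub2, a pseudouridine synthase, was at log2 0.51 (SE 0.17, edgeR adjusted p = 0.150) and Ybey, an endoribonuclease, at 0.81 (SE 0.32, 0.214). Of 17 mitochondrial tRNA synthetases 11 lay above 0 (median 0.10). The leucyl enzyme Lars2 was at 224, 45.2 and 60.6 CPM in WT, against 21.6, 7.16 and 5.12 CPM in DNAJ-PKAc, lower in every DNAJ-PKAc library but with WT A far above the others (log2 -3.27, SE 0.80, adjusted p = 0.0847). Over the alternatives its log2 difference ran from -4.16 to -2.22, the latter without WT A, and its adjusted p from 5.03e-05 (DESeq2) to 0.272, past the threshold in 2 of 17. The alanyl enzyme Aars2 was at 0.41 (SE 0.20, 0.268).

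Of 12 genes that copy and transcribe mitochondrial DNA 7 lay above 0 (median 0.08), with Tfam, which packages that DNA and starts its transcription, at 38.7, 30.8 and 38.5 CPM in WT, against 61.8, 66.8 and 45.3 CPM in DNAJ-PKAc (log2 0.69, SE 0.20, edgeR adjusted p = 0.124) and the single-strand binding protein Ssbp1 at 0.71 (SE 0.23, 0.145). Of 13 nuclear regulators 10 lay above 0 (median 0.23). Esrra, an estrogen-related receptor, was at log2 0.57 (SE 0.18, adjusted p = 0.153), and Ppargc1b, a coactivator of mitochondrial genes, at -1.2 (SE 0.40, 0.162). Without DNAJ-PKAc C, 3, 4, 2, 3, 2 and 2 genes of these 6 lists rose, in the order given, and 0 fell, where 14.3% of all genes rose and 11% fell. The medians of the 6 lists were 0.13, 0.17, -0.10, 0, 0.07 and 0.36 without WT B and 0.34, 0.44, 0.08, 0.23, 0.13 and 0.34 without DNAJ-PKAc C.

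Beside the most similar groups of the series, the 77 genes had a median log2 difference of 0.25 and medians against the WT mean of 0.36, 0.39 and 0.06 in the DNAJ-PKAc libraries and of -0.26 in WT B. The 44 tested genes of respiratory complex I had a median of 0.38, with 0.36, 0.41 and 0.33 in those of DNAJ-PKAc and -0.32 in WT B, and 41 of them lay above 0. The 77 tested cytosolic ribosomal protein genes had a median of 0.06, with -0.04, 0.05 and 0.18 in those of DNAJ-PKAc and -0.33 in WT B, and 46 lay above 0. All 3 groups were thus low in WT B, while in DNAJ-PKAc C the median of complex I stayed near that of A and B and the median of the mitochondrial ribosomal genes lay near WT. Without WT B the medians of the mitochondrial ribosome, complex I and the cytosolic ribosome were 0.08, 0.21 and -0.14, without DNAJ-PKAc C 0.36, 0.40 and -0.02, and without both 0.22, 0.22 and -0.23, so that of the cytosolic ribosome changed sign. In none of the 3 groups did a gene pass the edgeR test with all 6 libraries. In the order mitochondrial ribosome, complex I and cytosolic ribosome, an unadjusted p under 0.05 (edgeR) was met by 20 of 77, 12 of 44 and 7 of 77. Over all genes tested the share was 21.5%. DESeq2 called 3, 2 and 0 of them, beside 8.88% of all genes, and limma-voom 0 of each, beside 3.56%. The differences between the groups were not tested.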

How the data were processed

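Total RNA of 3 WT and 3 DNAJ-PKAc libraries was used. Per the file headers, the authors deposited unnormalized expected counts for each gene symbol in each library. The submitters' processing notes list STAR (2.5.2b), RSEM (1.3.0) and mm10, with no account of what each did. No source used here gives the annotation, the filters or the strand setting. Columns were matched to samples by the library names in the labels.

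Expected counts were rounded, genes kept by filterByExpr (minimum count 10), libraries scaled by TMM, and a robust quasi-likelihood model with the genotype as its only term fitted in edgeR 4.0.16 (R 4.3.3) on all genes. On counts simulated with the dispersions of these libraries it recovered 1, 13, 43 and 46 of 50 genes changed 1.5-, 2-, 4- and 8-fold. It also called 10 genes that had not been changed. Genes were drawn independently of each other, without libraries that stand apart as WT B and DNAJ-PKAc C do. Recovery and false calls in the real libraries may therefore differ. Tests were 2-sided. Log2 values per library used a prior count of 2. Alternatives used limma 3.58.1 and DESeq2 1.42.0. The members and lists were chosen with earlier results of these data known. Named were, in each subunit, the 4 highest and 4 lowest differences and the 3 highest and lowest levels per kb, with Mrps18a to c, Mrps30 and Mrps36, and in each list the 2 genes of smallest adjusted p. Those described beyond this rule (Mrpl10, Mrpl12, Mrpl18, Mrpl24, Mrpl45, Mrpl46, Mrpl47, Mrps11, Mrps12, the genes called with libraries left out, and the partners) and the sites on the ribosome were chosen after values were seen, as were the limit of 30 bases for printed promoters, the other class of Mrps18a and Mrps18b, the levels by group and the list medians with libraries left out. Mrpl13 was likewise taken out of the subunit ratio after its values were seen. Coordinates and transcript lengths came from GENCODE release M21 (GRCm38, the assembly of mm10). Counts of the libraries of 1 group differed by more than sampling noise (chi-square per degree of freedom of 3.75 for the closest pair), so all 6 were counted separately.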

Additional observations from a re-analysis of the deposited data

How the results depend on the processing

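None of the 77 genes passed the threshold with RLE or upper-quartile factors, no filter, a filter of 1 CPM in 3 libraries, limma-voom, dispersions without the robust option, structural RNA left out, a threshold of 0.01 or the replicate block. DESeq2 called 2 large- and 1 small-subunit gene higher, and 348 genes higher and 626 lower over the table. Leaving out each library in turn gave 0 to 11 large- and 0 to 6 small-subunit genes higher, with both highest values without DNAJ-PKAc C, and over all genes 19 to 1587 higher and 51 to 1221 lower, against 150 and 235. With WT B and DNAJ-PKAc C both left out, 18 large-subunit genes rose and 4 fell, 10 small-subunit genes rose and 2 fell, and 2633 rose and 2703 fell over all genes. The threshold of 0.01 left 14 higher and 58 lower. The cause was not tested, except that fewer libraries, or a lower threshold, change the test itself. Over the alternatives the medians ran from 0.09 to 0.39 (large) and 0.08 to 0.36 (small), both lowest without WT B.

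The replicate letter as a block gave 56 genes higher and 143 lower and no member. Of the other genes named, only Lars2 changed its call under the block, at log2 -3.2 and an edgeR adjusted p of 0.00971. Deviations of the same letter correlated at 0.211 (A), -0.198 (B) and 0.0282 (C), and WT A correlated more with DNAJ-PKAc B (0.303). With 3 libraries per group, of which WT B and DNAJ-PKAc C stood apart, these values cannot decide whether a letter marks a pair. The labels do not say. The alternatives gave 493 values for the 29 named members. Those at the threshold of 0.01 came from the main fit, where no member passed 0.05, so they could not change. Of the 493, 452 kept direction and side of the threshold, 31 newly passed it and 10 changed sign. These were Mrps30 with RLE factors (-0.01), upper-quartile factors (-0.05), DESeq2 (-0.01), without WT B (-0.16), DNAJ-PKAc A (-0.06) or DNAJ-PKAc B (-0.07), Mrps17 without WT A (0.03), Mrpl48 without WT B (-0.05) or both libraries (-0.03), and Mrpl55 without WT B (-0.04). Leaving out each library in turn, these 4 ran from -0.16 to 0.21 (Mrps30), -0.38 to 0.03 (Mrps17), -0.05 to 0.3 (Mrpl48) and -0.04 to 0.45 (Mrpl55). Depth limits the rarest genes most: Mrpl55 had 351 counts over the 6 libraries.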
